A study of Mus musculus with 5 samples.

Results

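Amino acid transporter genes were compared between optic nerves of adult mice cultured for 3 days with a low or a high concentration of LY294002, an inhibitor of PI3K. The genes were those that the array's platform annotation names with the family roots Slc1a, Slc3a, Slc6a, Slc7a, Slc36a, Slc38a or Slc43a followed by a number, without the antisense entries and without the astrocyte glutamate transporters Slc1a2 and Slc1a3. This gave 56 genes on 107 probe sets, out of 18193 singly named genes on the array. Of the 56 genes, 40 were bright enough to be tested, and 16 were not because no probe set of theirs had a mean log2 signal over the 5 arrays of at least 4.77, the 40th percentile of all probe sets.

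The nerves came from C57BL/6 mice aged P35 to P45 and were kept in organotypic culture, which severs the axons from the brain. They were taken out with the retina attached and were cleaned of the arachnoid membrane and other adhering tissue, per the study's methods, and the medium held horse serum. RNA of 3 L-LY29 samples and 2 H-LY29 samples was hybridised to 1 Affymetrix array each. The labels give 0.5 µM LY294002 for L-LY29 and 50 µM for H-LY29. For L-LY29 in adult nerves the study's methods state another, higher concentration than the labels do, and which is right is not known here. The labels spell the compound LY294002 in the sample titles and LY295002 in the treatment entries. All 5 samples received LY294002, and untreated nerves are not analysed here, so a gene described as lower in L-LY29 may equally be raised in H-LY29. The study's methods state that several nerves from several mice were used for the transcriptomic analysis. No source read here says which of them went into which sample or whether nerves were pooled, so the tests measure only the spread between these arrays.

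Most amino acids cross the plasma membrane through carriers of a few solute carrier families. Slc1 members take up glutamate or exchange small neutral amino acids, Slc7 members carry large neutral or cationic amino acids, and many of the Slc7 proteins are light chains that reach the membrane only when joined to a heavy chain of the Slc3 family. Slc38 members carry glutamine and other small neutral amino acids, some Slc36 members move amino acids with protons across lysosomal and plasma membranes, some Slc43 members carry branched-chain amino acids, and Slc6 members use the sodium and chloride gradients to carry glycine, proline, GABA, taurine, creatine or monoamines. Several of these genes are known targets of ATF4, the transcription factor of the amino acid response, which binds composite sites read as TGATGNAA, and leucine and glutamine brought in by such carriers are sensed by mTORC1, a kinase complex downstream of PI3K and Akt.

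The site TGATGNAA was looked for, on both strands, in the stretch of 250 bases before to 50 bases after each RefSeq transcription start in GRCm38.p6. Windows were given for 39 of the 56 genes, 60 windows in all, and 5 of them (8.33%) held the letters, in Slc1a4, Slc7a11, Slc7a7 and Slc6a21, against 3.97% of 32851 windows of all genes. Windows of Slc7a7 overlap and hold the same TGATGCAA, so that this site was counted more than once. The stretches of the 3 genes tested on the arrays are shown because they place these letters beside the genes whose levels follow, with the matches in capitals. A match is a string of letters and not a measured binding site.
Slc1a4, chr11:20332710-20332769, minus strand: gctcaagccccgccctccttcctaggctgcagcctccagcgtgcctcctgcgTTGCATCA
Slc7a11, chr3:50443634-50443703, minus strand: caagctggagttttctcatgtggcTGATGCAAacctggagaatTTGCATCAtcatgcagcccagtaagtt
Slc7a7, chr14:54417938-54418002, minus strand: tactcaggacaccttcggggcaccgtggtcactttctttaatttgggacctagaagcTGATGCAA
Slc7a11 held the letters TGATGNAA on each strand within these 70 bases, and Slc7a7 and Slc1a4 each held them at a transcription start. The TGATGCAA of Slc7a7 lay at −243 to −236 from another of its annotated starts. The window around the start shown for Slc7a7 also held TGATGAAA at −141 to −134, outside the stretch printed. The letters TGATGCAA of Slc7a7 and Slc7a11 read as TTGCATCA on the other strand, which is how Slc1a4 holds them. On the arrays Slc1a4 and Slc7a7 were lower in L-LY29, while Slc7a11 did not pass the test on its brighter probe set.

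The arrays of the same dose correlated with each other at r = 0.990 to 0.995 and those of different doses at r = 0.882 to 0.892, over all probe sets. The median log2 signal was 5.33 to 5.35 in L-LY29 against 5.54 to 5.56 in H-LY29. The 24 probe sets of the poly-A control RNAs, which are added to a sample before labelling, averaged 10.22 in L-LY29 against 3.17 in H-LY29. These RNAs were thus near the floor in H-LY29 alone, and sample preparation and dose cannot be told apart. The labelled tissue was checked against oligodendrocyte markers, which stood at a list mean of 12.23 to 12.33 in L-LY29 against 11.97 to 12.14 in H-LY29. A list of 9 markers of the ocular surface epithelium, which the nerve does not contain, averaged 7.33 to 9.75 in L-LY29 against 4.15 to 4.40 in H-LY29.

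Among the amino acid transporter genes bright enough to be tested, most gave lower signals in L-LY29 nerves than in H-LY29 nerves. Of the 40 tested genes, limma called 26 (65%) lower and 8 (20%) higher, and 6 did not pass limma's test at an adjusted p of 0.05 over all genes. Of all 12935 genes tested, 73.8% passed, 46.6% lower and 27.1% higher, so that most genes on these arrays differed between the doses. These shares are the background for every count by transport system or marker list below. The median difference, L-LY29 minus H-LY29, was −0.84 log2 units for the transporters and −0.26 for all genes. A call with a difference beyond −1, which is a 2-fold lower signal, was made for 18 transporters (45%) and for 29.1% of all genes, and beyond −2 for 11 transporters (27.5%) and 11.4% of all genes. The log2 signals of the 3 L-LY29 arrays lay wholly below those of the 2 H-LY29 arrays in 26 genes (background 51.8%) and wholly above them in 8 (background 31.3%), so that 34 of 40 genes did not overlap, where 83.1% of all genes did not.

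The split moved with the scaling of the arrays. With all arrays brought to the same distribution by quantile normalisation, 22 transporters were lower and 9 higher, with all genes at 36.7% lower and 39.2% higher. With equal array medians, 21 were lower and 10 higher, with all genes at 40% lower and 35.7% higher. The transporters' median difference was then −0.58 and −0.63, while that of all genes moved to 0.052 and −0.051. Among the 34 called genes the sign turned for Slc6a17 alone, under quantile normalisation, and for none under equal medians. Without the filter on dim genes, all 56 could be tested, and 26 were lower, 17 higher and 13 did not pass, against 35.6% lower and 29.1% higher of 18193 genes. In bulk tissue, fewer cells of a type and less RNA per cell cannot be told apart, for any gene below.

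**Figure D1:**
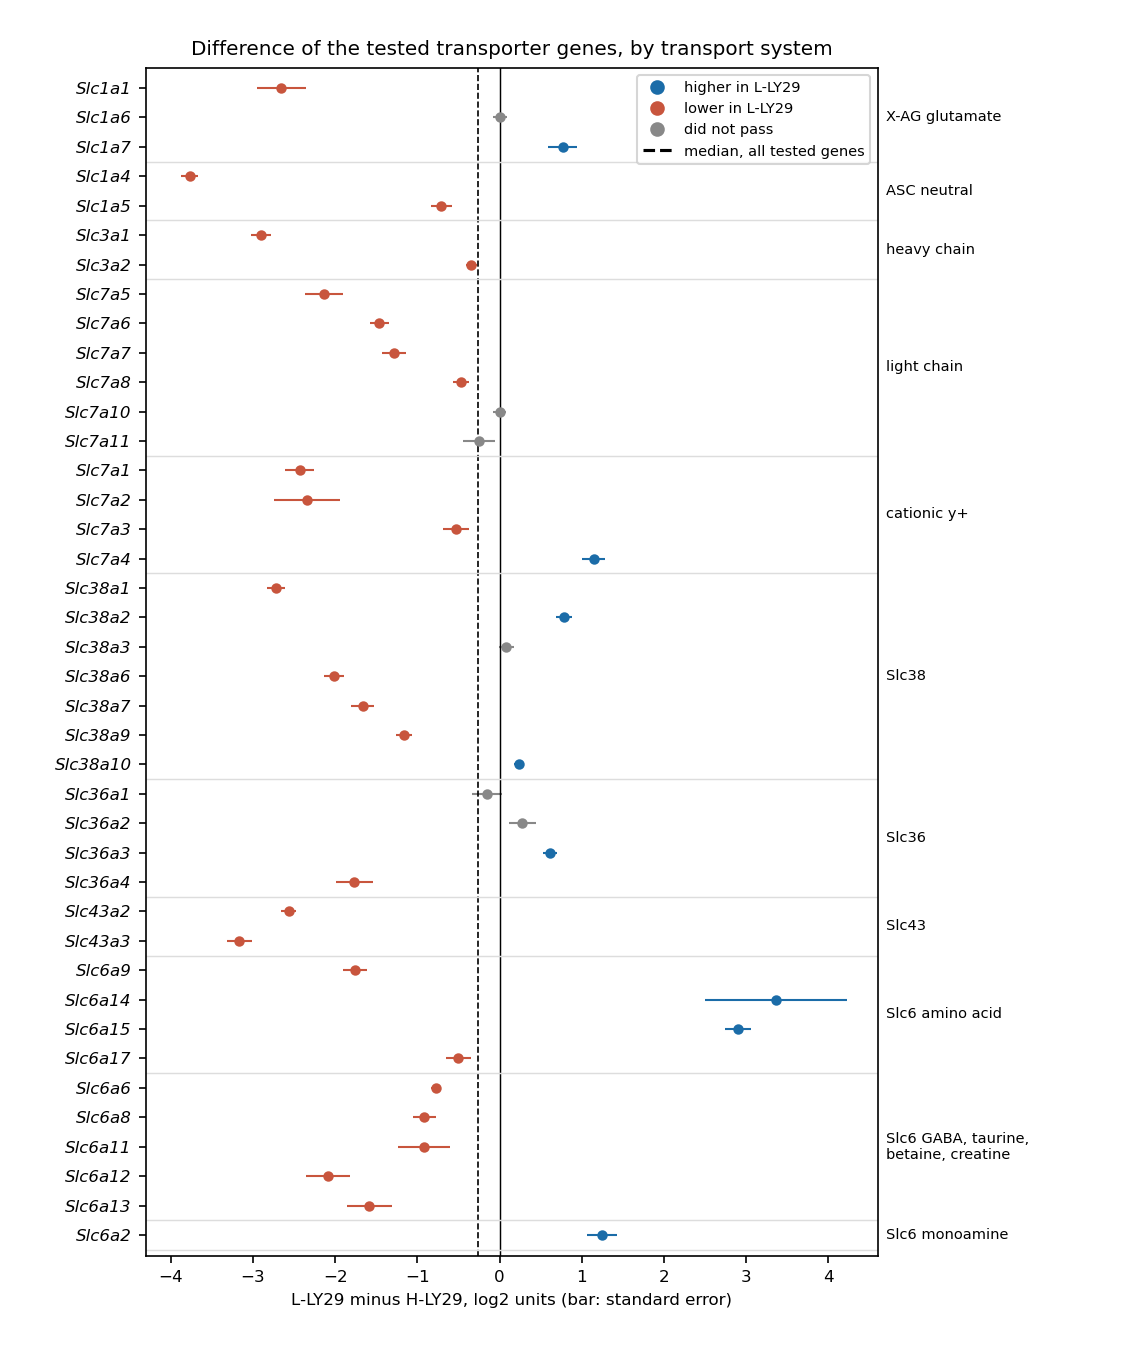
Difference in log2 signal, L-LY29 minus H-LY29, of the 40 tested amino acid transporter genes with its standard error (limma, 3 against 2 arrays), grouped by transport system. The dashed line is the median of all tested genes at −0.26, and 26 genes called lower lie left of 0 against 8 called higher on the right.

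Both heavy chains were lower in L-LY29, by very different amounts. Slc3a2, the heavy chain 4F2hc (CD98) that carries the light chains Slc7a5 to Slc7a8, Slc7a10 and Slc7a11, read 11.26, 11.29 and 11.35 in L-LY29 against 11.56 and 11.73 in H-LY29. It fell by 0.34 ± 0.07 log2 units (SE, adjusted p = 0.00624, limma), and with equal array medians the difference was −0.13 (adjusted p = 0.142). Slc3a1, the heavy chain rBAT of the cystine and dibasic amino acid exchanger of kidney and gut, stood at 4.38, 4.69 and 4.61 in L-LY29, below the filter of 4.77, and at 7.49 and 7.44 in H-LY29. Slc3a1 passed the filter through H-LY29 alone and so had to differ to be tested. Its difference was −2.90 ± 0.13 (adjusted p = 6.5e-05). The usual partner of Slc3a1, Slc7a9, was under the filter on average, at 3.46 to 3.60 in L-LY29 against 2.99 to 3.13 in H-LY29.

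Of the 10 light chains, 6 were tested, 4 were lower in L-LY29 and none was higher, beside 46.6% lower and 27.1% higher of all genes. Slc7a5 (LAT1), the exchanger that brings in leucine and other large neutral amino acids, had 8.75, 8.24 and 8.84 in L-LY29 against 10.56 and 10.94 in H-LY29. This was a difference of −2.14 ± 0.23 (adjusted p = 0.000735) while its heavy chain Slc3a2 differed by −0.34. Slc7a6, a y+L exchanger of cationic and neutral amino acids, had 6.45, 6.68 and 6.60 in L-LY29 against 7.94 and 8.14 in H-LY29, a difference of −1.46 ± 0.12 (adjusted p = 0.000307). Slc7a7, the other y+L light chain, had 6.83, 6.90 and 6.61 in L-LY29 against 8.21 and 7.91 in H-LY29, a difference of −1.28 ± 0.15 (adjusted p = 0.000947), and the second tested probe set of each of these y+L genes was called lower too. The fourth, Slc7a8 (LAT2), was called lower by a small step of −0.47, which did not pass with equal medians (adjusted p = 0.0795).

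Slc7a11, the light chain of the cystine and glutamate exchanger that feeds glutathione synthesis, is given here although it lies outside the rule for named genes, because its probe sets differed. Its brighter probe set read 8.10, 8.34 and 8.34 in L-LY29 against 8.80 and 8.23 in H-LY29, overlapping groups with a difference of −0.25 (adjusted p = 0.284). Its other probe set averaged 7.18 in L-LY29 against 9.11 in H-LY29, a difference of −1.93 that was called lower. Which of the probe sets follows the transcript was not tested. The sixth tested light chain, Slc7a10, read 5.18 on all 5 arrays, equal to the last digit, and carries no information on dose. Equal values on at least 3 arrays were found in 18 of the 107 probe sets of these genes. Over all 45101 probe sets, pairs of L-LY29 arrays held equal values in 8199 to 8963, and the pair of H-LY29 arrays in 1940. How these equal values arose is not known here. They narrow the spread within L-LY29, as for Slc7a8 at 4.97 on all 3 L-LY29 arrays. Standard errors and adjusted p values rest on that spread and may be too small.

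Cationic amino acid transporters of system y+ were lower in L-LY29 in 3 of 4 tested members, beside 46.6% of all genes. Slc7a1 (CAT1), which takes up arginine and lysine and is the widely expressed member, had 8.32, 8.44 and 8.56 in L-LY29 against 10.62 and 11.13 in H-LY29, a difference of −2.43 ± 0.17 (adjusted p = 0.0002). Slc7a2 (CAT2), the inducible arginine carrier, had 8.25, 7.0 and 8.06 in L-LY29 against 10.20 and 10.02 in H-LY29, a difference of −2.34 ± 0.40 (adjusted p = 0.00423). Its replicate 2 of L-LY29 was the lowest, as it was for 15 of the 40 tested transporters and for the astrocyte marker list, whose mean was 8.83, 8.16 and 8.77 in L-LY29 against 10.25 and 10.09 in H-LY29. The share of all genes lowest in that array was not counted, so this order may not be particular to these genes. Without H-LY29 replicate 1 or 2 the call on Slc7a2 did not pass (adjusted p = 0.0701 and 0.0596), although all 3 of its tested probe sets were called lower. Slc7a4, whose transport activity is not established, was higher, at 7.0, 7.16 and 7.13 in L-LY29 against 6.13 and 5.77 in H-LY29, a difference of 1.15 ± 0.14 (adjusted p = 0.00126). Slc7a3 was called lower by −0.53, and the call did not pass in 4 of the 5 fits that left out an array. The call was also lost with quantile normalisation (−0.095, adjusted p = 0.622) and with equal array medians (−0.32, adjusted p = 0.136). Of the untested members Slc7a14, chosen here after its values were seen, stood at 3.47, 3.61 and 3.50 in L-LY29 against 6.75 and 6.47 in H-LY29, and its 5-array mean stayed under the filter.

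In system ASC, which exchanges alanine, serine, cysteine and glutamine, both genes were lower in L-LY29. Slc1a4 (ASCT1), a carrier of serine that astrocytes use, showed the largest difference of the 40 genes. Its values were 6.96, 6.72 and 6.81 in L-LY29 against 10.53 and 10.67 in H-LY29, a difference of −3.77 ± 0.10 (adjusted p = 4.15e-05). The brightest probe set gave that value, and the other tested probe sets gave −0.32, which did not pass, and −1.53, which was called lower, so the direction was shared by all 3 but the size was not. Slc1a5 (ASCT2), the glutamine exchanger, had 6.33, 6.21 and 6.33 in L-LY29 against 7.16 and 6.83 in H-LY29, a difference of −0.71 ± 0.13 (adjusted p = 0.00584) that became −0.20 under quantile normalisation and did not pass (adjusted p = 0.21).

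The glutamate transporters of system X-AG that remained after Slc1a2 and Slc1a3 were set aside went different ways. Slc1a1 (EAAC1), a neuronal carrier of glutamate and cysteine also found in cells of the oligodendrocyte lineage, was lower, at 6.06, 5.40 and 5.91 in L-LY29 against 8.81 and 8.09 in H-LY29. The difference was −2.66 ± 0.30 (adjusted p = 0.000933), and its second tested probe set gave −0.94 with overlapping groups. Slc1a7 (EAAT5), known from the retina, was called higher by 0.77 ± 0.18 (adjusted p = 0.0131), at 5.35, 5.35 and 5.38 in L-LY29 against 4.32 and 4.87 in H-LY29. Of 11 markers of retina and neurons, 6 were tested, 3 were higher (Syt1 past the filter through L-LY29 alone) and 2 lower. Beside them, 27.1% of all genes were higher and 46.6% lower. The list mean was 5.25 to 5.31 in L-LY29 against 5.07 to 5.10 in H-LY29. Slc1a6 (EAAT4) read 4.90 on all 3 L-LY29 arrays and 4.90 and 4.89 in H-LY29.

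**Figure D2:**
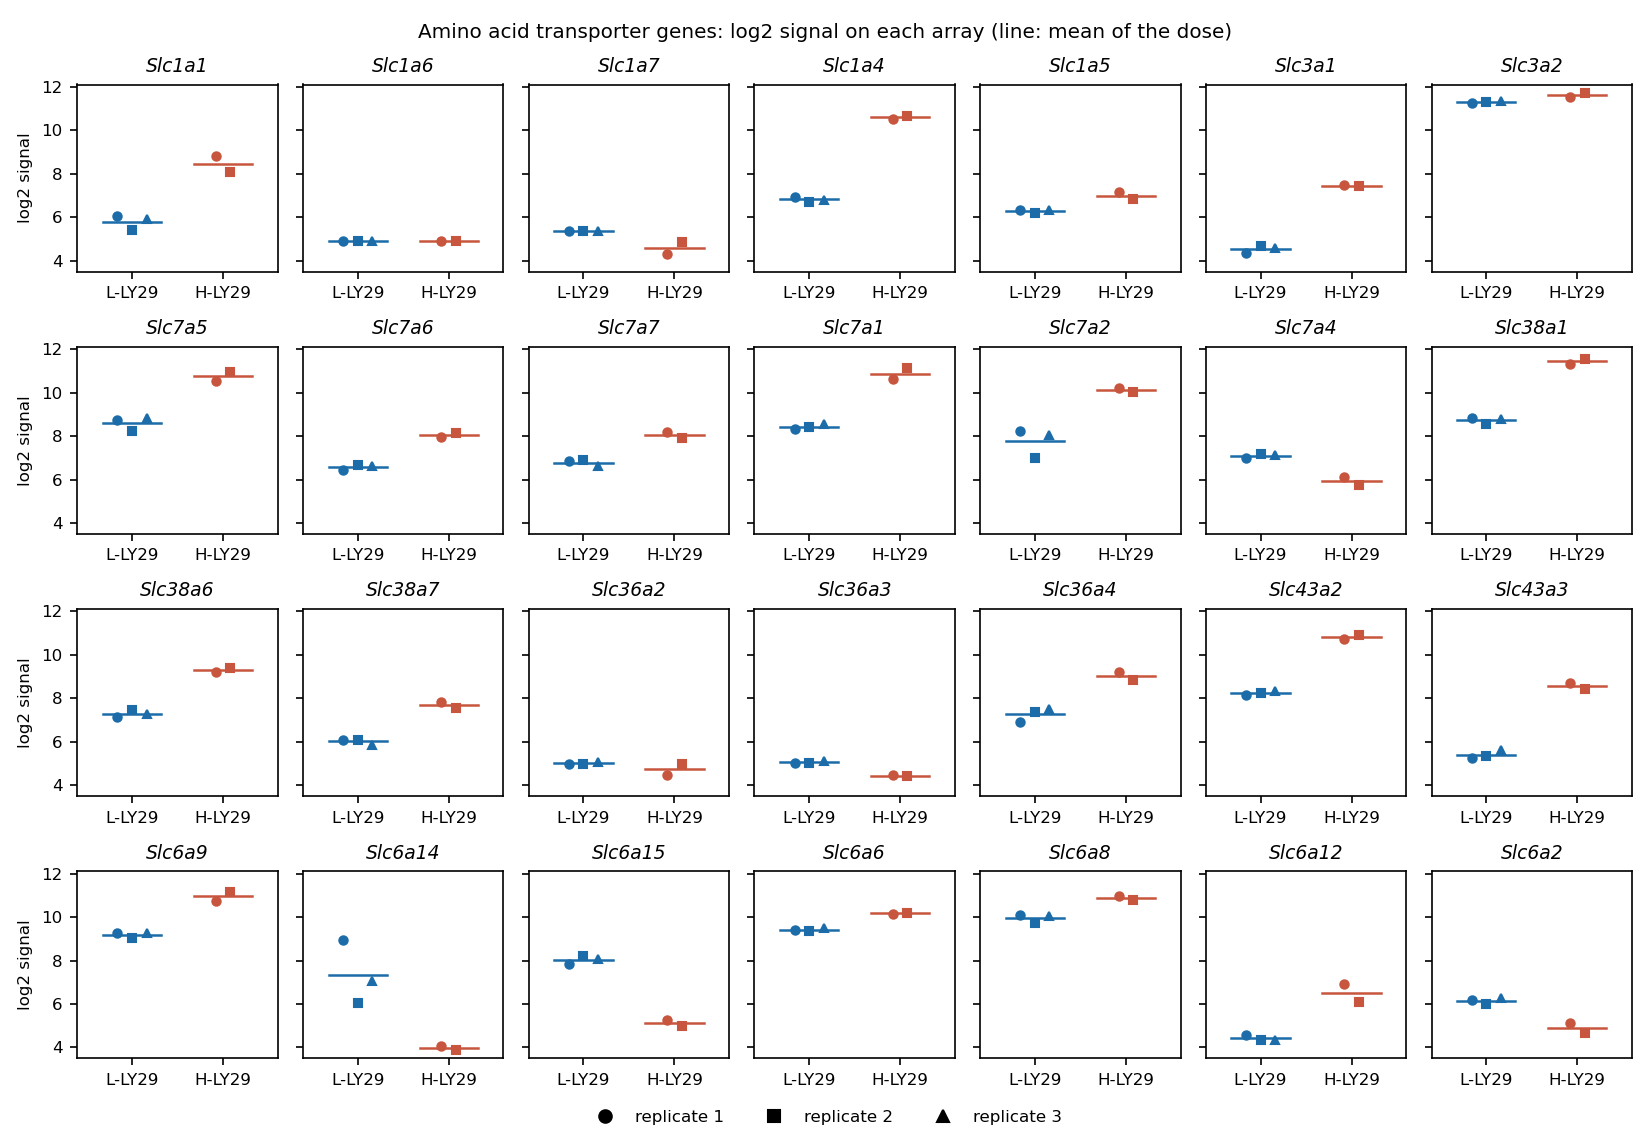
Log2 signal on each of the 3 L-LY29 (left) and 2 H-LY29 (right) arrays for the 28 amino acid transporter genes named by rule, with the mean of each dose as a line. Slc1a4 and Slc43a3 show doses far apart with tight replicates, as does Slc3a1, which passed the filter through H-LY29 alone. Slc6a14 spreads over 6.06 to 8.95 in L-LY29.

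Among the Slc38 carriers of glutamine and small neutral amino acids, 4 of the 7 tested genes were lower in L-LY29 and 2 were higher, shares near those of all genes (46.6% and 27.1%). Slc38a1 (SNAT1), a system A carrier of glutamine, had 8.83, 8.57 and 8.77 in L-LY29 against 11.34 and 11.55 in H-LY29, a difference of −2.72 ± 0.11 (adjusted p = 5.97e-05). Its second probe set gave −0.80 and was also called lower. Slc38a6 had 7.15, 7.45 and 7.26 in L-LY29 against 9.23 and 9.38 in H-LY29, a difference of −2.02 ± 0.12 (adjusted p = 0.000122), while its second probe set read 0.46 and did not pass. Slc38a7, a glutamine carrier of lysosomes, had 6.09, 6.09 and 5.87 in L-LY29 against 7.82 and 7.54 in H-LY29, a difference of −1.66 ± 0.14 (adjusted p = 0.000318).

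The remaining tested Slc38 genes are described here although they lie outside the rule for named genes. Slc38a2 (SNAT2), the system A carrier that cells induce when starved of amino acids, went the other way from Slc38a1. It read 9.92, 10.11 and 9.95 in L-LY29 against 9.12 and 9.30 in H-LY29, a difference of 0.78 ± 0.09 (adjusted p = 0.00107). A second probe set of Slc38a2 was called higher by 1.11 and the remaining probe set was called lower by −0.52. Slc38a9, the lysosomal arginine sensor of mTORC1, was called lower by −1.16 ± 0.10 (adjusted p = 0.000344), and of its 7 probe sets 5 were called lower and 1 higher, over a range of −2.93 to 1.29. Slc38a10 was called higher by 0.23 and lost the call without H-LY29 replicate 1. Of its 6 tested probe sets 4 were called higher and 2 did not pass. Slc38a3 differed by 0.08 and did not pass (adjusted p = 0.453). It was called higher with quantile normalisation (0.54, adjusted p = 0.00415) and with equal array medians (0.29, adjusted p = 0.0424).

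Both tested Slc43 genes were lower in L-LY29, each by more than 2 log2 units. Slc43a2 (LAT4), which lets branched-chain amino acids and phenylalanine leave or enter cells without exchange, had 8.17, 8.25 and 8.32 in L-LY29 against 10.71 and 10.92 in H-LY29. The difference was −2.57 ± 0.09 (adjusted p = 4.9e-05), and the second tested probe set gave −2.54. Slc43a3, which is known as a purine base carrier of blood vessels rather than as an amino acid carrier, had 5.26, 5.35 and 5.61 in L-LY29 against 8.70 and 8.45 in H-LY29, a difference of −3.17 ± 0.15 (adjusted p = 7.68e-05). Of 8 tested endothelial markers, 5 were higher and 1 (Flt1) was lower, beside 27.1% higher and 46.6% lower of all genes. Their list means were 6.98 to 7.39 in L-LY29 against 6.50 to 6.63 in H-LY29. How far vessel cells set the level of Slc43a3 was not tested.

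Of the 4 Slc36 carriers, 1 was lower in L-LY29, 1 was higher and 2 did not pass. Slc36a4, a high-affinity carrier of proline and tryptophan, was lower, at 6.92, 7.36 and 7.53 in L-LY29 against 9.23 and 8.85 in H-LY29, a difference of −1.77 ± 0.22 (adjusted p = 0.00139). Slc36a3 was called higher by 0.62 ± 0.09 (adjusted p = 0.00195) at a level near the filter, with 5.03, 5.03 and 5.11 in L-LY29 against 4.47 and 4.41 in H-LY29. Slc36a2 read 4.97, 4.97 and 5.07 in L-LY29 against 4.49 and 4.97 in H-LY29 and did not pass, and neither did Slc36a1, the lysosomal member (adjusted p = 0.477).

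Within Slc6, the carriers of amino acids split evenly. Slc6a15, a carrier of branched-chain amino acids and proline best known from neurons, was higher, at 7.85, 8.21 and 8.06 in L-LY29 against 5.28 and 4.99 in H-LY29. The difference was 2.90 ± 0.16 (adjusted p = 9.86e-05), and in no fit that left out an array was the call lost. Slc6a9 (GlyT1), the glycine transporter of glia, was lower, at 9.29, 9.03 and 9.26 in L-LY29 against 10.76 and 11.15 in H-LY29, a difference of −1.76 ± 0.15 (adjusted p = 0.000335), while its second probe set read 0.39 and did not pass. Slc6a17, a vesicular carrier of neurons, was called lower by −0.50, and its 3 probe sets disagreed, with 1 called lower, 1 called higher and 1 not passed. The call was lost without L-LY29 replicate 3 and without H-LY29 replicate 1 or 2 (adjusted p = 0.0515, 0.166 and 0.152).

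Slc6a14 (ATB0,+), a broad carrier of neutral and cationic amino acids found in epithelia, was called higher. It read 8.95, 6.06 and 7.05 in L-LY29 against 4.08 and 3.89 in H-LY29, a difference of 3.37 ± 0.86 (adjusted p = 0.018), and its other probe set gave 4.13. The H-LY29 mean of 3.98 lay under the filter and below 4.14, the highest mean of any poly-A control in H-LY29. Slc6a14 thus passed the filter through L-LY29 alone, and the size of its difference is not well measured. Without H-LY29 replicate 1 or 2 the call did not pass (adjusted p = 0.136 and 0.148). The L-LY29 arrays were ordered, from high to low, replicate 1, 3, 2. The ocular surface list was ordered in the same way, with means of 9.75, 7.33 and 8.22 in L-LY29 against 4.40 and 4.15 in H-LY29. Of its 8 tested genes 7 were higher, beside 27.1% of all genes. Of these 7, 5 passed the filter through L-LY29 alone and so had to differ. Krt12, a keratin of the cornea, read 12.20, 9.73 and 11.02 in L-LY29 against 4.56 and 5.26 in H-LY29. The part of such tissue in the level of Slc6a14 was not tested.

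**Figure D3:**
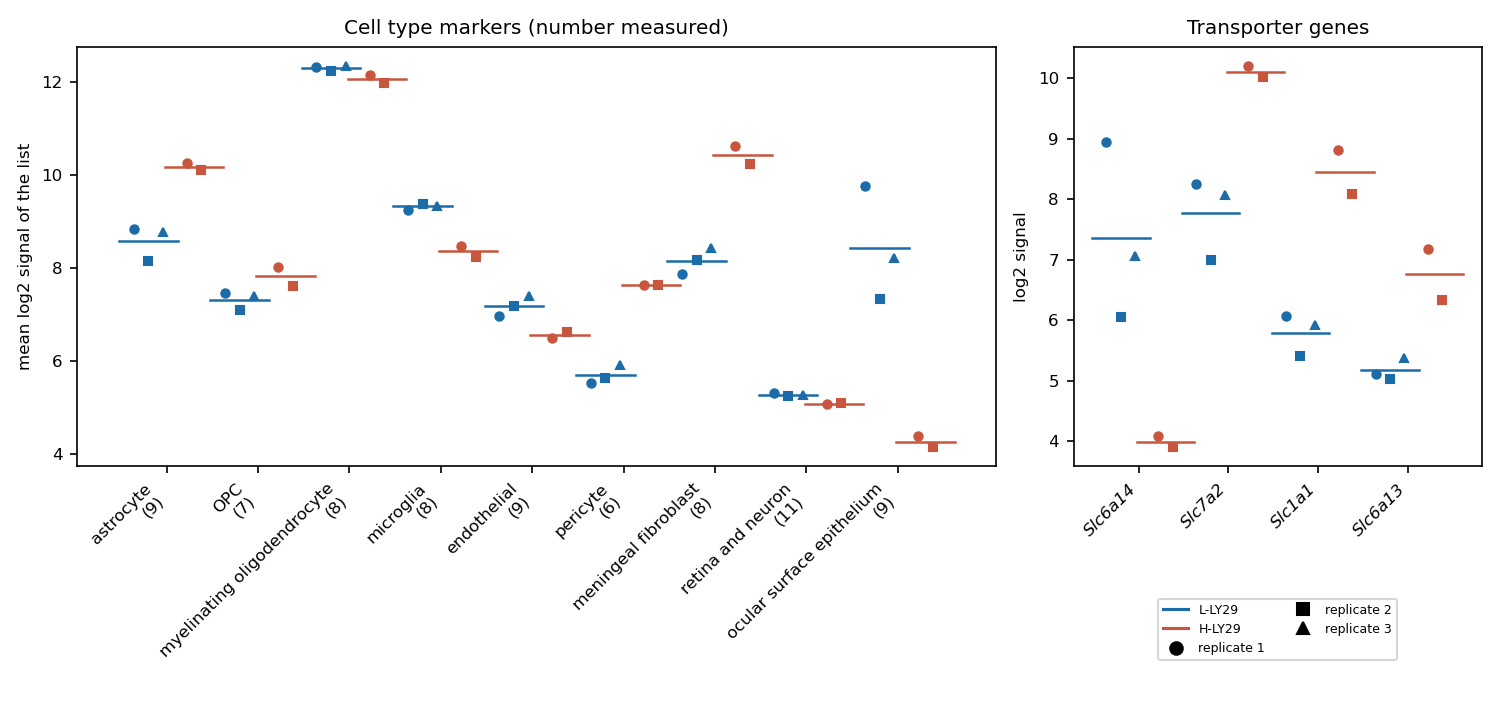
Left, mean log2 signal of 9 cell type marker lists on each array, L-LY29 left of H-LY29 within a list, with the number of markers measured. Right, log2 signal of Slc6a14, Slc7a2, Slc1a1 and Slc6a13 on the same arrays. Slc6a14 and the ocular surface markers share the array order replicate 1, 3, 2 in L-LY29, and Slc7a2, Slc1a1, Slc6a13 and the astrocyte markers are, like 15 of the 40 tested transporters, lowest in L-LY29 replicate 2. These transporters were picked for display, and the share of all genes lowest in that array was not counted.

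All 5 tested Slc6 carriers of taurine, creatine, betaine and GABA were lower in L-LY29, beside 46.6% of all genes. Slc6a6, the taurine transporter, had 9.39, 9.37 and 9.49 in L-LY29 against 10.16 and 10.21 in H-LY29, a difference of −0.77 ± 0.06 (adjusted p = 0.000308). Its probe sets ran from −1.85 to 0.13. Slc6a8, the creatine transporter, had 10.12, 9.73 and 10.03 in L-LY29 against 10.97 and 10.78 in H-LY29, a difference of −0.92 ± 0.14 (adjusted p = 0.00257), and its second probe set read 0.073 and did not pass. Slc6a12 (BGT1), a carrier of betaine and GABA, was under the filter in L-LY29, at 4.59, 4.34 and 4.33, and stood at 6.92 and 6.09 in H-LY29, a difference of −2.09 ± 0.27 (adjusted p = 0.00146).

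The GABA transporters Slc6a13 (GAT2) and Slc6a11 (GAT3) complete that group. Slc6a13, in mouse brain a gene of the meninges, differed by −1.58 ± 0.28 (adjusted p = 0.00456), with 5.03 to 5.37 in L-LY29 against 6.34 to 7.17 in H-LY29. Slc6a11, an astrocyte gene, differed by −0.92 (adjusted p = 0.0478) and lost the call without any single L-LY29 array (adjusted p = 0.111 to 0.116). Markers of meningeal fibroblasts were lower in 7 of 8, with list means of 7.87 to 8.42 in L-LY29 against 10.24 to 10.62 in H-LY29, those of pericytes in 5 of 6 (Kcnj8 past the filter through H-LY29 alone), with 5.54 to 5.92 in L-LY29 against 7.63 in H-LY29, and those of astrocytes in 5 of 9 with none higher. How far these cells set the transporters' levels was not tested. The single tested monoamine carrier, the noradrenaline transporter Slc6a2, was higher, at 6.18, 6.00 and 6.27 in L-LY29 against 5.14 and 4.67 in H-LY29, a difference of 1.24 ± 0.18 (adjusted p = 0.00223).

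Genes under the filter were compared by overlap alone. The 16 untested genes had 5-array means of 2.81 to 4.76, and in 11 of them all L-LY29 arrays lay above both H-LY29 arrays, in 1 (Slc7a14) below, and in 4 the doses overlapped. Of all 5258 genes under the filter, 47.4% lay above and 14.2% below in the same way. Conversely, 6 of the tested genes passed the filter through 1 dose only (Slc3a1, Slc6a12, Slc1a7, Slc36a2, Slc36a3 and Slc6a14), and such a gene had to differ to be tested unless its level sat close to the filter. Among the 34 genes past it in both doses, 24 were called lower and 5 higher, and 5 did not pass, beside 47.2% lower and 25% higher of all such genes.

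Probe sets of a gene often disagreed in size and at times in direction. Of the 73 probe sets tested, 41 were lower in L-LY29, 15 were higher and 17 did not pass, against 43.7% lower and 29% higher of all 23456 probe sets. Of the 18 genes with at least 2 tested probe sets, 13 had at least 2 called, and 3 of these (Slc38a2, Slc38a9 and Slc6a17) had calls in both directions, where 43.3% of all such genes on the array did.

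**Figure D4:**
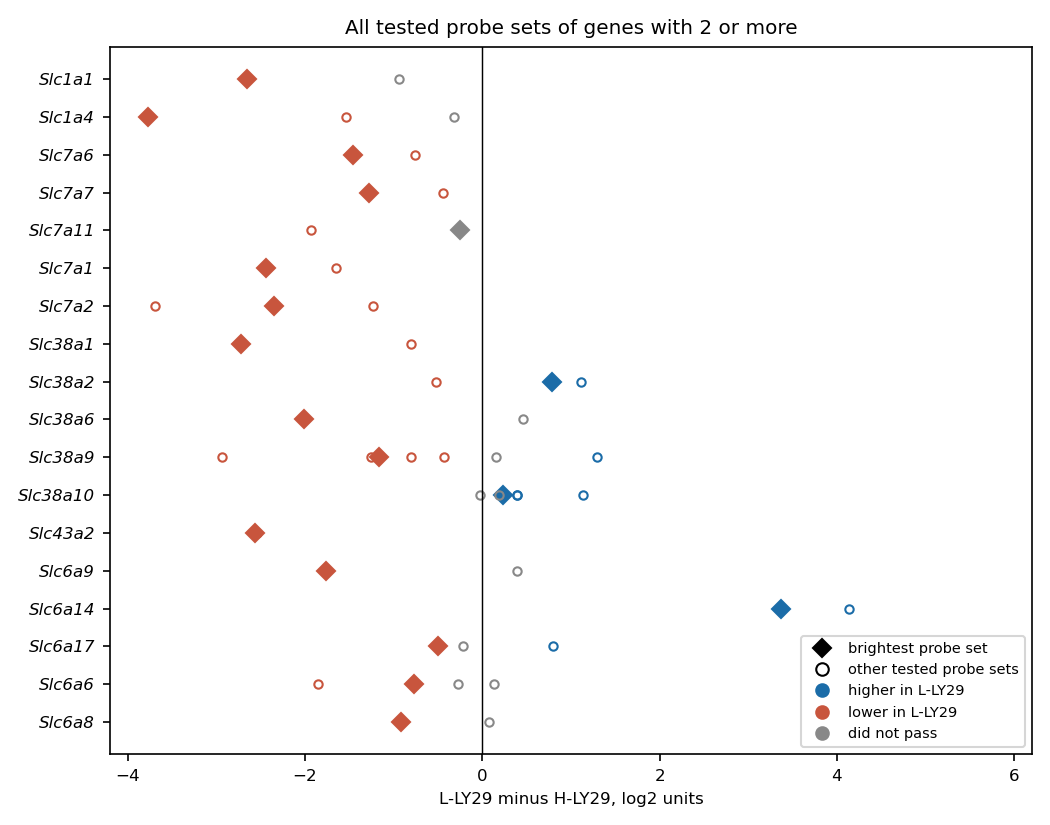
Difference in log2 signal, L-LY29 minus H-LY29, of every tested probe set of the 18 transporter genes with at least 2, with the brightest probe set of each gene as a filled diamond. The probe sets of Slc43a2 coincide, whereas those of Slc1a4 run from −3.77 to −0.32 and those of Slc38a9 from −2.93 to 1.29.

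Genes that act on amino acids inside the cell were set beside the carriers. Of 22 tested genes of amino acid synthesis and breakdown, 12 were lower in L-LY29, 3 were higher and 7 did not pass, with a median difference of −0.50, beside 46.6% lower and 27.1% higher of all genes and their median of −0.26. The 4 related lists are given as descriptions, and none was tested as a list. Bcat1 and Bcat2, the cytosolic and mitochondrial enzymes that transaminate branched-chain amino acids, fell by 3.05 ± 0.10 and 3.80 ± 0.22 (adjusted p = 4.84e-05 and 0.000116). Bcat2 read 4.31, 4.94 and 4.85 in L-LY29, on average under the filter, against 8.56 and 8.44 in H-LY29, and passed it through H-LY29 alone. Bcat1 read 8.81, 8.98 and 9.12 in L-LY29 against 12.06 and 11.99 in H-LY29. Gpt2, the mitochondrial alanine aminotransferase, fell by 2.96 ± 0.11 (adjusted p = 5.25e-05), at 8.48, 8.20 and 8.43 in L-LY29 against 11.25 and 11.41 in H-LY29. Of the probe sets of Gpt2, 3 were called lower and 1 was called higher. Glud1, glutamate dehydrogenase, was higher by 0.78 ± 0.05 (adjusted p = 0.000175).

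In the ATF4 axis, a list of 18 tested stress kinases, factors and targets, 11 were called lower in L-LY29 and 1 higher, and 6 did not pass, with a median of −0.91, beside the same 46.6% lower and 27.1% higher of all genes. Ddit4 (REDD1), a target that restrains mTORC1, read 10.21, 9.69 and 9.95 in L-LY29 against 13.47 and 13.54 in H-LY29, a difference of −3.55 ± 0.16 (adjusted p = 6.77e-05). Nupr1, a stress-induced regulator of transcription, fell by 2.77 ± 0.12 (adjusted p = 6.84e-05), and Eif2ak1, the eIF2α kinase HRI, fell by 1.44 ± 0.09 (adjusted p = 0.000143). Cebpb, a partner of ATF4 at composite sites, was the gene that was higher, at 11.37, 11.49 and 11.59 in L-LY29 against 9.46 and 9.06 in H-LY29, a difference of 2.22 ± 0.14 (adjusted p = 0.000144).

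Components of amino acid sensing upstream of mTORC1 were called about as often as all genes (46.6% lower, 27.1% higher), with 14 of 29 tested lower in L-LY29, 6 higher and 9 not passed, and a median of −0.39. Castor2, a relative of the arginine sensor, read 6.25, 6.69 and 6.69 in L-LY29 against 9.48 and 9.11 in H-LY29, a difference of −2.75 ± 0.20 (adjusted p = 0.000202). Seh1l, of the GATOR2 complex, fell by 1.87 ± 0.12 (adjusted p = 0.000145), whereas Rheb, the GTPase that activates mTORC1, and Lamtor5, of the Ragulator scaffold, were higher by 0.87 ± 0.06 and 1.14 ± 0.08 (adjusted p = 0.00016 and 0.000187).

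Glutathione synthesis, which uses the cystine brought in by Slc7a11, had 4 of 8 tested genes higher in L-LY29, 2 lower and a median of 0.65, beside 27.1% higher and 46.6% lower of all genes. Gclm, the modifier subunit of the rate-limiting ligase, read 10.73, 10.65 and 10.60 in L-LY29 against 9.13 and 8.74 in H-LY29, a difference of 1.73 ± 0.13 (adjusted p = 0.000231). Gss, glutathione synthetase, was higher by 1.47 ± 0.12 (adjusted p = 0.000285) and Ggt5, a transferase that cleaves glutathione-linked substrates outside the cell, by 1.92 ± 0.09 (adjusted p = 7.74e-05). Ggt5 read 5.68, 5.53 and 5.58 in L-LY29 against 3.65 and 3.70 in H-LY29, where they lay within the poly-A range, and passed the filter through L-LY29 alone. Gsr, which reduces oxidised glutathione, fell by 1.53 ± 0.09 (adjusted p = 0.000115), but of its probe sets 1 was called lower and 1 higher.

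**Figure D5:**
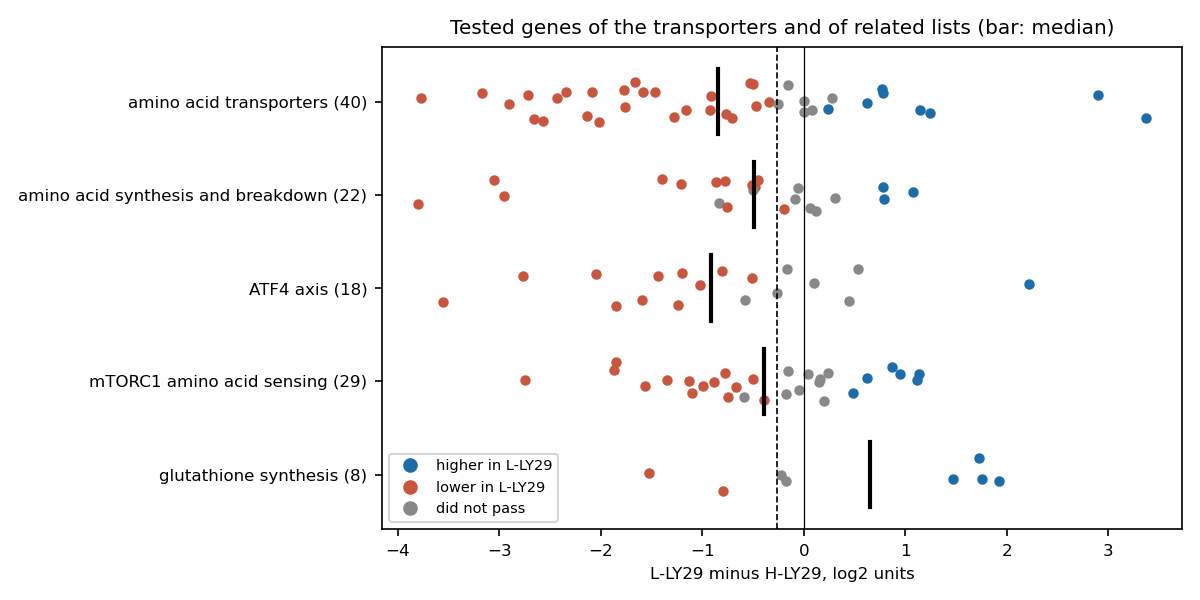
Difference in log2 signal, L-LY29 minus H-LY29, of the tested genes among the amino acid transporters and in 4 related lists, each point a gene and each bar the list's median. The medians are −0.84 for the transporters, −0.50 for amino acid synthesis and breakdown, −0.91 for the ATF4 axis, −0.39 for mTORC1 amino acid sensing and 0.65 for glutathione synthesis, beside −0.26 for all genes (dashed line). With quantile normalisation (not drawn) they were, in the same order, −0.58, −0.28, −0.65, −0.064 and 1.07, beside 0.052 for all genes.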

How the data were processed

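RNA was biotin-labelled and hybridised to Affymetrix GeneChip mouse genome arrays, which the authors read in Affymetrix GeneChip Operating Software and normalised in GeneSpring GX by MAS-5. The authors deposited 1 log2 signal per array for each of 45101 probe sets. Their scaling target was not stated in any source read here. The number of arrays (3 L-LY29 and 2 H-LY29) limits the precision.

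Probe sets were named from the platform annotation, which gave 34958 of them 1 gene, 932 several and 9211 none, and only the first were used. Probe sets with a 5-array mean under the 40th percentile (4.77) were dropped, and the brightest probe set stood for its gene. The log2 differences, L-LY29 minus H-LY29, were tested with limma 3.58.1 under R 4.3.3, using eBayes with a trend on intensity after lmFit, and with Benjamini-Hochberg adjustment over 12935 genes and a threshold of 0.05. The fit was tested on simulated data. No genome build is named in the array file, so only the promoter windows carry coordinates, those of RefSeq in GRCm38.p6.

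The transporter genes and the lists set beside them were chosen with earlier results of these data known. Named genes were both heavy chains, up to 3 tested members of each system with the smallest adjusted p, the 10 called members with the largest differences and doses that did not overlap, and up to 4 genes of each related list by adjusted p. Alternatives were no filter or a 60th percentile filter, quantile normalisation, equal array medians, a floor at the 10th percentile, the mean or the second brightest probe set, no intensity trend, an unpaired t-test, a replicate block and each array left out.

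The main fit did not pair samples by replicate number. The deviations of L-LY29 replicate 1 and H-LY29 replicate 1 from their group means correlated at 0.0152. The deviations of only 2 H-LY29 arrays mirror each other, so this value cannot decide whether the samples were paired.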

Additional observations from a re-analysis of the deposited data

How the results depend on the processing

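Of the 34 called transporters, 14 kept their call and direction under all 15 alternatives. A further 6 kept them wherever they were tested: Slc3a1, Slc1a7, Slc36a3, Slc6a2, Slc6a12 and Slc6a13 were under the 60th percentile filter, and Slc36a3 also under the filter without any 1 of the L-LY29 arrays. The number higher in L-LY29 was 8, and became 17 without the filter and 4 with the 60th percentile filter. The median difference of −0.84 became −0.20 without the filter, −1.28 with the 60th percentile filter, −0.58 with quantile normalisation, −0.63 with equal array medians, −0.70 with the mean of each gene's probe sets and −0.46 with the second brightest. The filters change which genes are tested, and the cause of the other shifts was not tested. Slc6a17 turned to 0.032 with quantile normalisation and 0.024 with the mean of probe sets, and the second brightest probe set turned Slc38a6 to 0.46, Slc6a8 to 0.073 and Slc6a9 to 0.39, none of which passed the test. Leaving out 1 array at a time gave 7 to 8 transporters higher and 23 to 25 lower, 8634 to 9495 of all genes called, and a median of −0.96 to −0.62, where a lone H-LY29 array is assumed to vary like the L-LY29 arrays.

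With the replicate number as a block, 7 transporters were higher and 23 lower with a median of −0.86, and 8359 of all genes were called, and Slc38a10, Slc6a11, Slc6a17 and Slc7a8 did not pass. Whether samples with the same number share mice or a batch is not known here. An unpaired t-test, which the study's methods name for other measurements, with Benjamini-Hochberg adjustment called 7 higher and 23 lower, and did not call Slc6a14 (adjusted p = 0.0764). Signals near the filter limit what can be read from Slc1a6, Slc1a7, Slc36a2 and Slc36a3, and no array of untreated nerves was analysed here.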

Other observations

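Of 11 tested amino acid carriers outside the families or names described, 3 were lower in L-LY29, 1 was higher and 7 did not pass. Beside them, 46.6% of all genes were lower and 27.1% higher. Ctns, the lysosomal cystine exporter, read 5.78, 5.65 and 5.74 in L-LY29 and 9.06 and 9.23 in H-LY29, a difference of −3.42 ± 0.10 (SE, adjusted p = 4.24e-05, limma). Slc15a4, a lysosomal carrier of histidine and peptides, read 10.19, 10.01 and 10.25 in L-LY29 and 8.68 and 8.47 in H-LY29, a difference of 1.57 ± 0.11 (adjusted p = 0.000192), so 2 lysosomal carriers were called in opposite directions. Slc6a20a, a proline carrier of the meninges in mouse brain, read 5.58, 5.42 and 5.24 in L-LY29 and 8.71 and 7.09 in H-LY29, a difference of −2.49 ± 0.49 (adjusted p = 0.007). Slc1a3 (GLAST), an astrocyte glutamate carrier, read 8.38, 6.92 and 8.30 in L-LY29 and 10.51 and 9.99 in H-LY29, a difference of −2.38 ± 0.51 (adjusted p = 0.00928). Its lowest array was L-LY29 replicate 2, and of its probe sets 1 was called lower and 1 higher.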
